A study of Mus musculus with 12 samples.

Results

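Back skin with psoriasis-like lesions induced by imiquimod (IMQ) was compared with normal back skin, using 8 of the 12 samples sequenced in the study. All samples came from wild-type (WT) BALB/c mice, an albino strain, whose backs had been shaved, and all were taken on day 10. The control group was given petroleum jelly and is labelled only as white space handling, and the IMQ + NS group was given imiquimod cream followed each day by normal saline (NS) under a dressing. The remaining 4 samples, from lesions that received the herbal Banzhilian formula (BZLF) in place of saline, were used to set the filter on low values, for the summed levels quoted for 2 foreign organs and in 1 alternative fit. The labels number the 4 samples of each group without naming the animals, so p-values measure only the spread between these samples. Of 18505 genes in the file, the 15288 with a mean of at least 0.1 FPKM over the 12 samples were compared, which is every gene that entered the tests. FPKM counts the fragments of a gene relative to the length of its transcript and to the mapped fragments of its library, so that levels of different genes can be set side by side.

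Imiquimod activates Toll-like receptor 7 (TLR7) on immune cells, and repeated application to mouse skin is widely used as a model of psoriasis in which interleukin 23 (IL-23) and interleukin 17 (IL-17) drive the thickening of the epidermis and the entry of neutrophils. Keratinocytes that leave the basal layer normally replace the keratins KRT5 and KRT14 with KRT1 and KRT10 and then assemble a cornified envelope, whereas in wounds and psoriasis they make KRT6, KRT16 and KRT17. Mouse hair follicles cycle between rest (telogen) and growth (anagen), and a growing follicle holds dividing matrix cells, pigment-producing melanocytes, an inner root sheath and a hair shaft of keratins cross-linked by keratin-associated proteins (KRTAPs). Shaved back skin therefore contains epidermis, follicles at some stage of that cycle, dermis, fat and the thin muscle sheet beneath.

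Expression was compared on log2(FPKM + 0.1) with limma, and a gene was called where its Benjamini-Hochberg adjusted p was under 0.05 and it differed by more than 1 on the log2 scale. By this rule 1740 genes (11.4% of those tested) were higher and 1678 genes (11.0%) were lower in IMQ + NS samples, or 22.4% in either direction. Over all genes, the log2 fold change had a median of 0.053. Rescaling the samples moved that median by -0.04 (median ratio scaling), -0.13 (equal sums) or -0.12 (quantile normalization). Without control replicate 2, in which hair growth genes were raised, 2196 genes (14.4%) were higher and 1871 genes (12.2%) were lower, or 26.6% in either direction, and 1709 of the higher and 1641 of the lower genes were called both with and without it. The 4 values of one group lay entirely above those of the other for 23.7% of genes in the IMQ + NS direction and 25.7% in the control direction, and for 39.9% and 29.1% without control replicate 2. These shares are the background for the counts in each list of genes. Without the fold limit 4427 genes were higher and 4142 lower at an adjusted p below 0.05, the background for counts given without that limit. At least as many genes pass at an unadjusted p below 0.05, for which no share of all genes is given. Control replicate 2 was left out because earlier results of these data showed its raised hair growth genes. For genes raised in it, larger fold changes and lower adjusted p-values without it follow in part from that choice. Values per sample follow the order of replicates 1 to 4 throughout. Where 5 or fewer genes of a list were called they are named, except any that are not reported here, and those outside the fixed rule for named genes were chosen after their values were seen.

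Per sample the FPKM values summed to 444660 to 461199 in the control group and 492551 to 506622 in the IMQ + NS group, and the read depth behind them could not be recovered. All samples carried the defining transcripts of skin, with Krt5 at 539 FPKM or more and Krt14 at 405 FPKM or more. Transcripts of other organs were present too. The 8 seminal vesicle genes in the file, of which 7 were tested, summed to 41.2 FPKM in control replicate 2 and 40.5 FPKM in IMQ + BZLF replicate 2. In the other samples they summed to no more than 0.0441 FPKM. The 12 pancreas genes summed to 239, 252, 271 and 25.2 FPKM in control samples, to 226, 248, 244 and 23.9 FPKM in IMQ + BZLF samples and to 57.9, 68.0, 283 and 2.73 FPKM in IMQ + NS samples. Control and IMQ + BZLF samples of the same number thus held foreign transcripts at similar levels, and IMQ + NS samples ranked by number as the controls did but stood lower in replicates 1, 2 and 4. None of the 19 tested genes of these lists was called by limma, and the number at an unadjusted p below 0.05 was 0 for both lists. Their part in the other results was not tested.

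**Figure D1:**
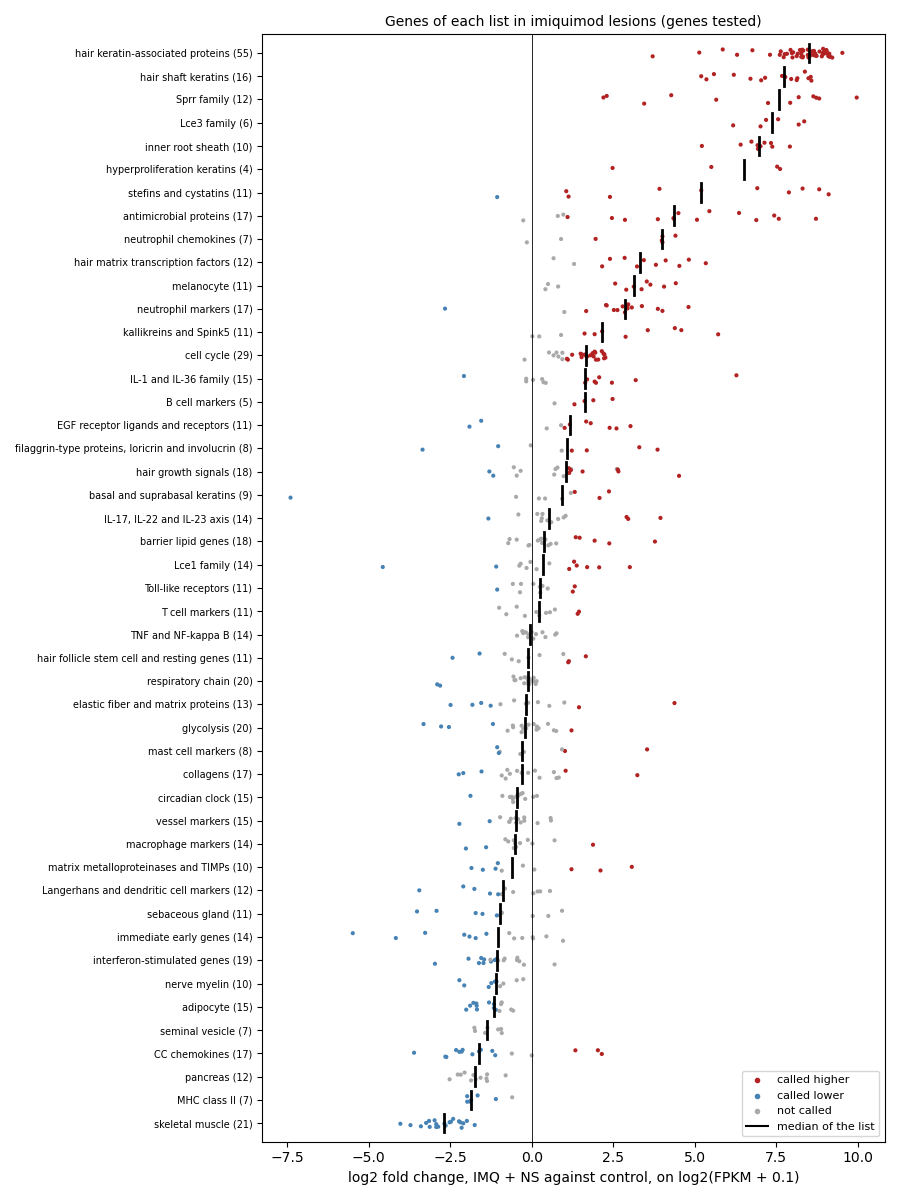
Each point is 1 gene, placed by its log2 fold change in IMQ + NS against control samples (horizontal axis, on log2(FPKM + 0.1)) within its list (vertical axis, number of genes tested in brackets), with called genes coloured and a bar at the median of the list. Hair keratin-associated proteins stand at one end with a median of 8.51 and skeletal muscle at the other with a median of -2.68.

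The proximal promoters of 6 genes at the extremes of the comparison are shown because 4 of the families called higher held a feature of promoter sequence more often than all genes did. The genes are a hair shaft KRTAP (Krtap8-1), keratins of the inner root sheath (Krt71 and Krt25), an antimicrobial protein (S100a8), a cornified envelope protein (Sprr2d) and the gene with the largest fall (Krt77). Each line gives 120 bases ending at the base before the transcription start listed with RefSeq promoters (GRCm38.p6, the build called mm10; the last base shown for Krt77 is the outermost base of its gene record), read 5′ to 3′ on the strand of the gene, with the letters TATAAA, the core of a TATA box, in capitals.
Krtap8-1, chr16:89487953-89488072, minus strand: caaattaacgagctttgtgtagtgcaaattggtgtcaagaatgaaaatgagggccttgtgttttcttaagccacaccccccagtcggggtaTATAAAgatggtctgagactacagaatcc
Krt71, chr15:101743098-101743217, minus strand: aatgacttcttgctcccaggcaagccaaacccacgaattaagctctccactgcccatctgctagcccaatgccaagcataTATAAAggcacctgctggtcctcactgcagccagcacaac
Krt25, chr11:99322952-99323071, minus strand: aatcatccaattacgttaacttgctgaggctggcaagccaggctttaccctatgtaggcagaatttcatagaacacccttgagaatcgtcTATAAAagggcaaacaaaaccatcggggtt
S100a8, chr3:90668951-90669070, plus strand: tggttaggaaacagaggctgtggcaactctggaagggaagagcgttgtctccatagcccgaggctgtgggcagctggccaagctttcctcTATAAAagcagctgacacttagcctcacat
Sprr2d, chr3:92339020-92339139, plus strand: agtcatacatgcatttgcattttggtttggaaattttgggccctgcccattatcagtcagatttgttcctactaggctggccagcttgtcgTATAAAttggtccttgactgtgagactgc
Krt77, chr15:101869706-101869825, minus strand: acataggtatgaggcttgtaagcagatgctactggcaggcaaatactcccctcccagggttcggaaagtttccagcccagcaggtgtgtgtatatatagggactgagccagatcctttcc
The motif began at position -29 in Krtap8-1 and Sprr2d, -30 in Krt25 and S100a8 and -40 in Krt71 relative to the start. Those exact letters were not found on either strand of the Krt77 window, which holds the similar letters tatatata. Variants of the motif were not searched, so a TATA box in that promoter is neither shown nor excluded. Of the 12074 tested genes with a promoter in the table, 568 (4.7%) held TATAAA on either strand of this window. The share was 80.0% for KRTAP genes (40 of 50), 75.0% for the Sprr family (9 of 12), 60.0% for the inner root sheath (6 of 10) and 55.6% for hair shaft keratins (5 of 9). It was 14.1% of all genes called higher (189 of 1338) and 8.44% of all genes called lower (109 of 1292), and 23.5% for skeletal muscle (4 of 17) and 15.4% for collagens (2 of 13). The Lce3, stefin and hyperproliferation keratin lists were not searched. None of 25 cell cycle genes and none of 4 MHC class II genes held it. A match describes these letters and was not tested as a site of binding.

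KRTAPs and hair shaft keratins had the highest medians of all lists. All 16 hair shaft keratins and all 55 KRTAP genes that passed the filter, of 56 in the file, were called higher, with median log2 fold changes of 7.73 and 8.51. All 4 IMQ + NS values of each of these genes lay above all 4 control values. Together both families took 0.0322%, 0.114%, 0.0221% and 0.0194% of the summed FPKM in the control samples and 12.1%, 8.29%, 9.66% and 11.4% in the IMQ + NS samples, so that the mean share went from 0.0469 ± 0.045% to 10.4 ± 1.72% (SD, n = 4). In bulk skin, fewer cells of a type and less RNA per cell cannot be told apart, and the same holds for more.

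Krtap7-1, which encodes a high glycine-tyrosine KRTAP of the hair cortex, was at 15.1, 17.7, 8.65 and 8.21 FPKM in the control samples and at 5288, 3532, 4594 and 5354 FPKM in the IMQ + NS samples. Its log2 fold change was 8.61 ± 0.26 (adjusted p = 9.8e-08), and control replicate 2 did not stand apart from replicate 1. Krtap8-1, whose promoter is shown above, went from 14.8, 22.1, 11.0 and 6.81 FPKM to 5097, 3556, 4429 and 5304 FPKM (log2 fold change 8.49 ± 0.32, adjusted p = 3.2e-07). These levels in the lesions exceeded those of the epidermal keratins Krt5 and Krt14 on the same length-normalized scale. By the size of the change, Krtap6-3, Krtap19-5 and Krtap21-1 were among the 10 largest rises, at log2 fold changes of 9.53, 9.22 and 9.15. That ranking took at most 3 genes from 1 list and so left out other KRTAPs such as Krtap9-5 (9.13). Among the 100 genes with the largest rises, ranked without that cap, 41 were named Krtap. KRTAP genes are alike in sequence and many lie side by side, so that the authors' counting could have split reads between them, and the values of single members are uncertain.

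The hair shaft keratins differed from the KRTAPs in control replicate 2. Krt31, a type I keratin of the cortex, was at 2.12, 9.65, 1.13 and 1.29 FPKM in the control samples and at 540, 435, 445 and 630 FPKM in the IMQ + NS samples. Krt85, a type II keratin made early in the matrix and cortex, was at 5.20, 94.0, 0.83 and 0.706 FPKM against 448, 449, 369 and 598 FPKM. Krt35, the type I keratin made early in the shaft, was at 4.72, 149, 0.624 and 0.868 FPKM against 366, 341, 268 and 434 FPKM. In control replicate 2 the early keratins Krt35 and Krt85 thus stood nearer to the lesions than the late Krt31 did. Leaving that sample out moved the log2 fold change from 7.68 to 8.34 for Krt31, from 6.71 to 8.18 for Krt85 and from 6.20 to 7.85 for Krt35.

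All 10 genes of the inner root sheath, the rigid sleeve that guides the growing shaft, were called higher, with a median of 6.98 and without overlap between the groups. Krt71, a type II keratin of the sheath, was at 14.6, 638, 6.36 and 5.04 FPKM in the control samples and at 3351, 2799, 2739 and 3472 FPKM in the IMQ + NS samples (log2 fold change 7.02 ± 1.35, adjusted p = 0.0024). Krt25, its type I counterpart, was at 13.1, 484, 3.39 and 3.91 FPKM against 2011, 1691, 1626 and 2127 FPKM (log2 fold change 6.74 ± 1.38, adjusted p = 0.0034). Tchh, which encodes trichohyalin, the granule protein of the sheath and medulla, was at 6.78, 203, 3.64 and 3.85 FPKM against 1917, 1473, 1548 and 1874 FPKM. For each, control replicate 2 was far above the other controls and below every lesion. Without it the log2 fold changes were 8.61 for Krt71 (adjusted p = 4.1e-07), 8.34 for Krt25 and 8.50 for Tchh, and the median of the list was 8.47. The sample was picked for its raised hair growth genes, so the lower adjusted p follows in part from that choice. Krt73, Krt35, Krt25, Krt71 and Krt27 were the 5 called genes whose fold change moved most when control replicate 2 was left out.

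The transcription factors of the hair matrix, the dividing cells at the base of the follicle, were called higher in 10 of 12 cases, with a median of 3.34. Hoxc13, which switches on hair keratin genes, was at 1.83, 22.8, 0.904 and 0.752 FPKM in the control samples and 45.0, 44.5, 34.4 and 47.8 FPKM in the IMQ + NS samples (log2 fold change 4.11 ± 0.92, adjusted p = 0.0052). Foxn1, the factor lost in nude mice, was at 0.787, 3.64, 1.43 and 1.06 FPKM against 46.5, 39.7, 37.1 and 54.1 FPKM (log2 fold change 4.82 ± 0.39, adjusted p = 2.8e-05). Msx2 was at 2.15, 24.0, 0.780 and 0.584 FPKM against 60.9, 57.4, 41.3 and 63.2 FPKM (log2 fold change 4.53 ± 0.98, adjusted p = 0.0045). None of these 3 genes overlapped between the groups, also with control replicate 2 included. Without that replicate 11 of 12 were called, with a median of 4.29.

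Secreted signals and receptors of hair growth moved less evenly. Of 18 tested, 7 were called higher (Fgf5, Wnt11, Corin, Bmp2, Wnt5a, Gli2 and Wnt10a) and 2 lower (Fgf7 and Eda). Fgf5, the signal that ends the growth phase, was at 0.130, 0.889, 0.0613 and 0.0309 FPKM in the control samples and 7.11, 5.17, 5.47 and 6.16 FPKM in the IMQ + NS samples (log2 fold change 4.52 ± 0.56, adjusted p = 2.5e-04). Sonic hedgehog (Shh), which the growing bulb secretes, was at 1.14, 13.1, 0.0357 and 0.0449 FPKM against 4.59, 5.29, 3.76 and 4.55 FPKM, and its target Gli1 was at 6.22, 30.8, 2.26 and 2.27 FPKM against 12.9, 12.9, 8.86 and 10.9 FPKM. For both, control replicate 2 exceeded every lesion while the other controls lay below all of them. With it neither passed the test (log2 fold change 2.61 ± 1.31 for Shh, adjusted p = 0.12, and 0.98 ± 0.74 for Gli1, adjusted p = 0.28). Without it both did (3.99, adjusted p = 0.0014, and 1.79, adjusted p = 0.0019), and 13 of the 18 genes were then called higher. That sample was left out because its hair growth genes were raised, so the lower adjusted p-values follow in part from that choice.

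Genes that mark stem cells or resting follicles had no common direction. Of 11 genes, Lgr5, Sox9 and Foxc1 were called higher, Cd34 and Fgf18 lower, and the median was -0.10. Cd34, which marks bulge stem cells as well as vessels and fibroblasts, was at 295, 222, 377 and 340 FPKM in the control samples and 54.6, 69.3, 53.6 and 49.7 FPKM in the IMQ + NS samples (log2 fold change -2.43 ± 0.17, adjusted p = 1.2e-05). Krt15, a keratin of the bulge and basal layer, was at 338, 342, 433 and 437 FPKM against 253, 224, 188 and 204 FPKM, without overlap, but its log2 fold change of -0.83 ± 0.13 did not reach the fold limit. Lhx2, a factor of stem and early progenitor cells, was at 5.37, 25.3, 3.23 and 3.41 FPKM against 12.6, 14.3, 10.6 and 12 FPKM. It was not called with control replicate 2 (log2 fold change 0.97 ± 0.58, adjusted p = 0.18) and was called higher without it (1.63, adjusted p = 9.8e-05).

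Melanocyte genes, which follicles transcribe during growth, were called higher in 8 of 11 cases, with a median of 3.13, although only 3 of the 11 did not overlap between the groups. Tyrp1, an enzyme of the pigment pathway, was at 5.63, 58.3, 1.47 and 1.89 FPKM in the control samples and 64.7, 49.8, 42.2 and 88.6 FPKM in the IMQ + NS samples (log2 fold change 3.37 ± 1.01, adjusted p = 0.02). Dct was at 14.6, 107, 7.83 and 9.11 FPKM against 115, 88.7, 87.0 and 155 FPKM, and Pmel, a structural protein of the pigment granule, was at 4.73, 40.4, 1.78 and 2.58 FPKM against 44.5, 33.4, 30.6 and 66.4 FPKM. In control replicate 2 all 3 genes were within the range of the lesions. The adjusted p fell from 0.017 to 1.3e-05 for Dct and from 0.018 to 3.7e-05 for Pmel without that sample. These falls follow in part from leaving out a sample picked for its raised hair growth genes. Tyrp1 lost its call without control replicate 3 or 4 or IMQ + NS replicate 4, and Pmel lost it without control replicate 4 or IMQ + NS replicate 4.

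Cell cycle genes depended on control replicate 2 in the same way. Of 29 tested, 21 were called higher with a median of 1.65, and 27 were called with a median of 2.36 without that sample, but none of the 29 was free of overlap between all 8 samples. Mki67, which encodes the proliferation antigen Ki67, was at 3.55, 23.7, 2.10 and 2.38 FPKM in the control samples and 21.5, 21.4, 24.7 and 21.5 FPKM in the IMQ + NS samples (log2 fold change 2.26 ± 0.67, adjusted p = 0.019). Top2a, the topoisomerase of dividing cells, was at 6.07, 37.4, 3.75 and 3.84 FPKM against 26.8, 26.3, 30.2 and 29.0 FPKM (log2 fold change 1.87 ± 0.65, adjusted p = 0.036). Without control replicate 2 the log2 fold changes were 3.04 for Mki67 (adjusted p = 2.5e-06) and 2.63 for Top2a (adjusted p = 4.6e-06). Here too the lower adjusted p-values follow in part from the choice of the sample left out. With control replicate 2 kept, Mki67 lost its call when any other control was left out, and Top2a lost its call when any other sample was left out.

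**Figure D2:**
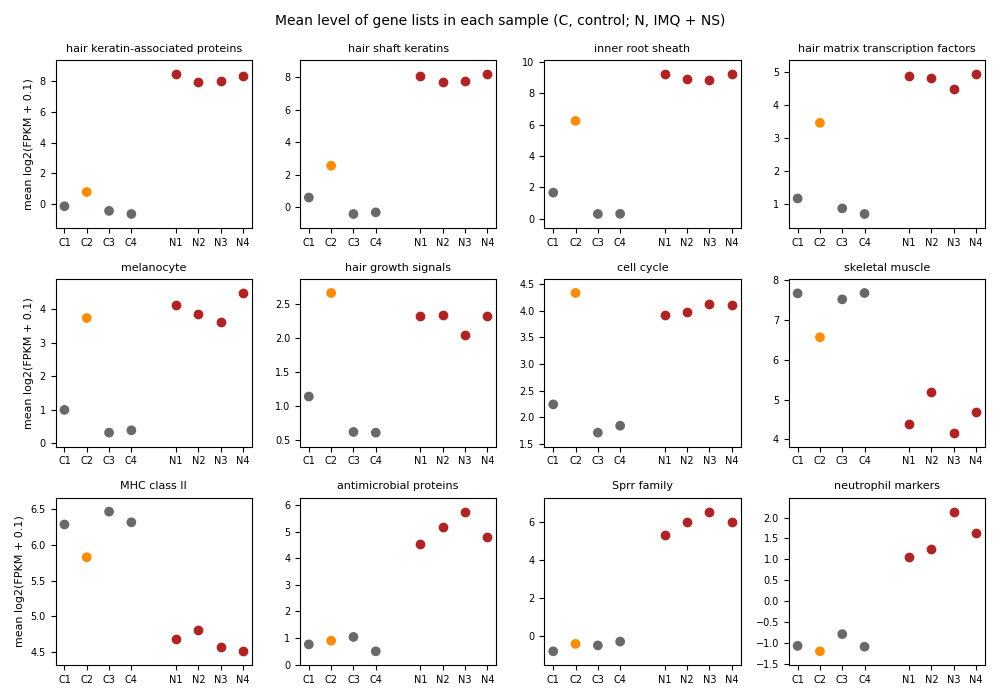
Each panel gives the mean log2(FPKM + 0.1) of 1 list of genes (vertical axis) in each of the 4 control samples (C1 to C4, replicate 2 in orange) and 4 IMQ + NS samples (N1 to N4, red), with a scale of its own that does not start at 0. Control replicate 2 lies above the lesions for cell cycle genes (4.33 against 3.92 to 4.12) and with the other controls for Sprr and antimicrobial genes.

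The position of control replicate 2 was measured for each list as a share of the difference between the other 3 controls and the 4 lesions in mean log2(FPKM + 0.1). It stood at 127% of that difference for hair growth signals, 114% for cell cycle, 91.9% for melanocyte genes, 66.2% for the inner root sheath, 66.0% for matrix transcription factors, 32.6% for hair shaft keratins and 13.9% for KRTAPs. Cell cycle genes and growth signals were thus above the mean of the lesions in this sample, while hair shaft keratins (2.56 in mean log2, against -0.40 to 0.61 in the other controls) and KRTAPs stood above the other controls but nearer to them than to the lesions. Among the inflammation lists its position was 3.22% for antimicrobial proteins, -0.84% for neutrophil chemokines, 16.4% for CC chemokines and -17.0% for the IL-17 axis. It was 35.5% for interferon-stimulated genes and -37.3% for the IL-1 and IL-36 family. In the TNF, Toll-like receptor and metalloproteinase lists the difference itself was small (0.03, 0.08 and -0.1). This sample was the lowest control in 7 of 9 inflammation lists and 7 of 7 immune cell lists. Its position was -8.58% for neutrophil markers and 1.78% for the Sprr family. It stood at 35.1% for skeletal muscle, 36.2% for adipocyte genes and 30.7% for MHC class II genes, all of which were lower in it than in any other control. Seminal vesicle transcripts were also found in this control and in none of the others.

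**Figure D3:**
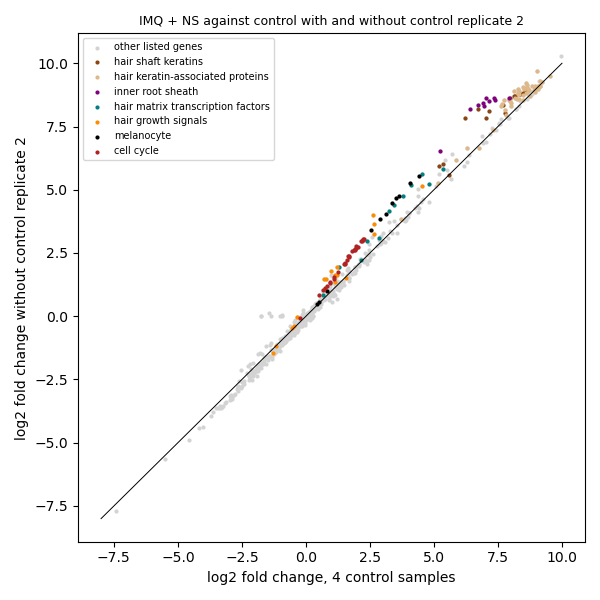
Each point is 1 listed gene, with its log2 fold change in IMQ + NS against all 4 controls on the horizontal axis and against the 3 controls without replicate 2 on the vertical axis; the line marks equal values. Inner root sheath, matrix, melanocyte, growth signal and cell cycle genes mostly lie above the line, with the median of the inner root sheath at 6.98 and 8.47.

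In the epidermis, keratins of hyperproliferation rose together with those of the basal layer, and suprabasal keratins diverged. All 4 hyperproliferation keratins were called higher without overlap. Krt16, made by suprabasal cells of thickened epidermis, was at 2.35, 3.27, 2.28 and 2.58 FPKM in the control samples and 309, 485, 839 and 486 FPKM in the IMQ + NS samples (log2 fold change 7.53 ± 0.27, adjusted p = 2.3e-07). Its partner Krt6a was at 8.28, 21.3, 10.6 and 10 FPKM against 366, 458, 842 and 587 FPKM (log2 fold change 5.51 ± 0.33, adjusted p = 5.0e-06), and Krt6b was at 1.36, 2.68, 1.59 and 2.02 FPKM against 225, 393, 606 and 405 FPKM (log2 fold change 7.62 ± 0.30). Krt17, which the growing follicle also expresses, rose least of the 4, from 178, 588, 236 and 236 FPKM to 1444, 1214, 1921 and 1695 FPKM (log2 fold change 2.48 ± 0.34, adjusted p = 4.0e-04), and was higher in control replicate 2 than in the other controls.

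Of 9 basal and suprabasal keratins tested, Krt5, Krt14 and Krt1 were called higher and Krt77 lower. Krt14, the type I keratin of basal cells, was at 405, 460, 510 and 571 FPKM in the control samples and 1590, 2000, 2958 and 1852 FPKM in the IMQ + NS samples (log2 fold change 2.08 ± 0.19, adjusted p = 4.8e-05). Krt5 went from 539, 697, 663 and 728 FPKM to 1410, 1514, 2186 and 1499 FPKM (log2 fold change 1.32 ± 0.15, adjusted p = 1.8e-04). Krt1, the first keratin of the suprabasal layers, went from 195, 117, 297 and 320 FPKM to 1032, 1497, 1326 and 754 FPKM (log2 fold change 2.37 ± 0.33, adjusted p = 4.8e-04), whereas its usual partner Krt10 was at 905, 535, 1280 and 1327 FPKM against 1227, 1812, 1066 and 633 FPKM and did not pass (log2 fold change 0.22 ± 0.37, adjusted p = 0.63). Krt77, an alternative suprabasal partner of KRT10, was at 522, 310, 772 and 787 FPKM in the control samples and 6.97, 2.85, 2.0 and 2.68 FPKM in the IMQ + NS samples. Its log2 fold change of -7.40 ± 0.41 (adjusted p = 3.2e-06) was the largest fall among the called genes ranked. It was 1 of only 2 keratin genes called lower in the keratin clusters, the other being Krt222.

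Cornified envelope genes were divided by family. All 12 Sprr genes tested were called higher, with a median of 7.59, and all 6 Lce3 genes were, with a median of 7.38, again without overlap. Sprr2d was at 0.772, 0.771, 0.751 and 1.02 FPKM in the control samples and 226, 459, 722 and 407 FPKM in the IMQ + NS samples (log2 fold change 8.82 ± 0.30, adjusted p = 1.8e-07). Sprr1b, a small proline-rich protein of stressed epidermis, was at 0.321, 0.350, 0.268 and 0.811 FPKM against 127, 237, 293 and 180 FPKM (log2 fold change 8.64 ± 0.33, adjusted p = 3.5e-07). Sprr2b had the largest rise of the called genes ranked, from 0.0716, 0.358, 0.219 and 0.0369 FPKM to 136, 261, 473 and 204 FPKM (log2 fold change 9.97 ± 0.46). The Sprr2 genes are near copies of each other, and reads could have been divided among them.

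Lce3c, one of the envelope genes that human epidermis induces after injury, was at 0.666, 0.222, 0.499 and 0.548 FPKM in the control samples and 23.9, 35.1, 90.5 and 34.3 FPKM in the IMQ + NS samples (log2 fold change 6.18 ± 0.42, adjusted p = 9.9e-06). Lce3a was listed at 0 in 3 controls and at 0.0455 FPKM in control replicate 2, against 21.3, 32.6, 75.8 and 31.6 FPKM in the lesions (adjusted p = 5.9e-07). The 14 Lce1 genes, which normal epidermis uses, had no common direction, with 6 called higher, 2 lower (Lce1m and Lce1l) and a median of 0.35. Lce1m was at 248, 114, 297 and 334 FPKM against 14.6, 9.97, 7.76 and 7.52 FPKM (log2 fold change -4.57 ± 0.35, adjusted p = 1.9e-05), while Lce1f was at 26.4, 14.8, 26.3 and 28.8 FPKM against 63.1, 63.9, 80.1 and 42.8 FPKM (log2 fold change 1.38 ± 0.25, adjusted p = 0.0016). Genes of the same family thus changed in opposite directions.

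Among 8 filaggrin-type and related genes, Flg, Ivl, Rptn and Cdsn were called higher and Lor and Flg2 lower. Flg, which encodes filaggrin, the protein that bundles keratin in the outer layers, was at 1.02, 1.75, 1.80 and 1.59 FPKM in the control samples and 19.2, 20.4, 18.3 and 8.43 FPKM in the IMQ + NS samples (log2 fold change 3.30 ± 0.30, adjusted p = 4.7e-05). Ivl, which encodes the early envelope protein involucrin, was at 12.4, 12, 23.5 and 22.7 FPKM against 63.0, 49.3, 63.8 and 44.0 FPKM (log2 fold change 1.69 ± 0.25, adjusted p = 6.4e-04). Lor, which encodes loricrin, the main protein of the mature envelope, was at 563, 303, 891 and 860 FPKM against 371, 397, 282 and 179 FPKM and overlapped in control replicate 2 (log2 fold change -1.03 ± 0.37, adjusted p = 0.042). The call of Lor was lost when control replicate 1, 3 or 4 or IMQ + NS replicate 1, 3 or 4 was left out, and without control replicate 2 its log2 fold change was -1.36 (adjusted p = 0.0033).

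Of 18 barrier lipid genes, 5 (Cers3, Abca12, Pnpla1, Nipal4 and Degs2) were called higher and none lower, with a median of 0.37. Without the fold limit 10 were higher and 2 lower at an adjusted p below 0.05 (4427 and 4142 of all 15288 genes). Cers3, the ceramide synthase of very long fatty acids, was at 3.30, 4.82, 5.29 and 5.85 FPKM in the control samples and 17.2, 17, 22.7 and 17 FPKM in the IMQ + NS samples (log2 fold change 1.93 ± 0.18, adjusted p = 5.8e-05). Abca12, the lipid transporter of lamellar granules, was at 3.79, 2.97, 6.41 and 6.87 FPKM against 12.4, 12.4, 17.8 and 11.2 FPKM (log2 fold change 1.47 ± 0.28, adjusted p = 0.0022). Alox12b, a lipoxygenase of the same route, was at 5.51, 4.27, 10.2 and 11.4 FPKM against 8.68, 8.92, 10.3 and 7.14 FPKM and did not pass (log2 fold change 0.26 ± 0.30, adjusted p = 0.49).

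Proteases of the outer layers and inhibitors of cysteine proteases mostly rose. Of 11 genes for kallikreins and their inhibitor, 8 were called higher with a median of 2.16, and Klk5, Klk11 and the inhibitor gene Spink5 were not. Klk6 was at 6.96, 8.18, 5.74 and 8.80 FPKM in the control samples and 140, 133, 297 and 184 FPKM in the IMQ + NS samples (log2 fold change 4.59 ± 0.25, adjusted p = 3.1e-06), and Klk7, which cuts the junctions of shedding cells, was at 35.7, 51.0, 48.6 and 47.4 FPKM against 194, 169, 280 and 181 FPKM (log2 fold change 2.16 ± 0.17, adjusted p = 2.5e-05). Of 11 stefins and cystatins, inhibitors of cysteine proteases, 10 were called higher with a median of 5.20, and Cst3, the cystatin found in most tissues, was called lower (-1.06). Stfa3 was at 6.38, 6.98, 8.87 and 9.88 FPKM against 1545, 2244, 2589 and 1461 FPKM (log2 fold change 7.89 ± 0.21, adjusted p = 4.9e-08), and Cstdc6 was at 1.62, 2.07, 0.991 and 1.20 FPKM against 624, 1054, 1180 and 638 FPKM (log2 fold change 9.11 ± 0.27). Stefins are transcribed by neutrophils as well as keratinocytes, and as close copies of each other they may have divided reads, so single values are uncertain.

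Ligands of the epidermal growth factor (EGF) receptor family, several of which drive keratinocyte growth, were mostly higher. Of 11 ligand and receptor genes, 7 were called higher (Areg, Hbegf, Ereg, Tgfa, Epgn, Nrg1 and Erbb3) and Egf and Btc were called lower. Areg, which encodes amphiregulin, was at 1.17, 4.45, 1.26 and 0.636 FPKM in the control samples and 8.45, 7.31, 10.7 and 11.4 FPKM in the IMQ + NS samples (log2 fold change 2.60 ± 0.48, adjusted p = 0.002). Hbegf was at 1.70, 2.62, 3.67 and 5.39 FPKM against 5.93, 6.02, 7.68 and 5.74 FPKM, and its log2 fold change of 1.01 ± 0.31 lay at the limit. Its call was lost without control replicate 1 or 2 or IMQ + NS replicate 3, and under all 3 other scalings of the samples.

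Several of these families lie side by side in the genome (GRCm38). In the epidermal differentiation complex on chromosome 3 (chr3:90511034-93564645, from S100a1 to S100a10), 41 of 62 tested genes (66.1%) were called higher and 8 were called lower (Lor, Flg2, Lce1l, Lce1m, S100a4, S100a13, S100a7l2 and 2310050C09Rik). The type I keratin and KRTAP cluster on chromosome 11 (chr11:99232761-100269951) had 54 of 61 genes (88.5%) higher and 1 lower. In the type II keratin cluster on chromosome 15 (chr15:101348315-102032026), 18 of 24 genes (75.0%) were higher and 1 was lower, and all 5 genes of the stefin cluster on chromosome 16 (chr16:36277148-36455392) were higher. Against a background of 11.4% these shares are high, but the lists above and the regions hold many of the same genes. Of the 100 largest rises, 32 lay in the chromosome 11 cluster, 7 in the epidermal differentiation complex, 3 in the type II cluster, 3 in the stefin cluster and 55 elsewhere. KRTAP genes on chromosome 16, such as Krtap8-1, were not set as a region and count as elsewhere.

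**Figure D4:**
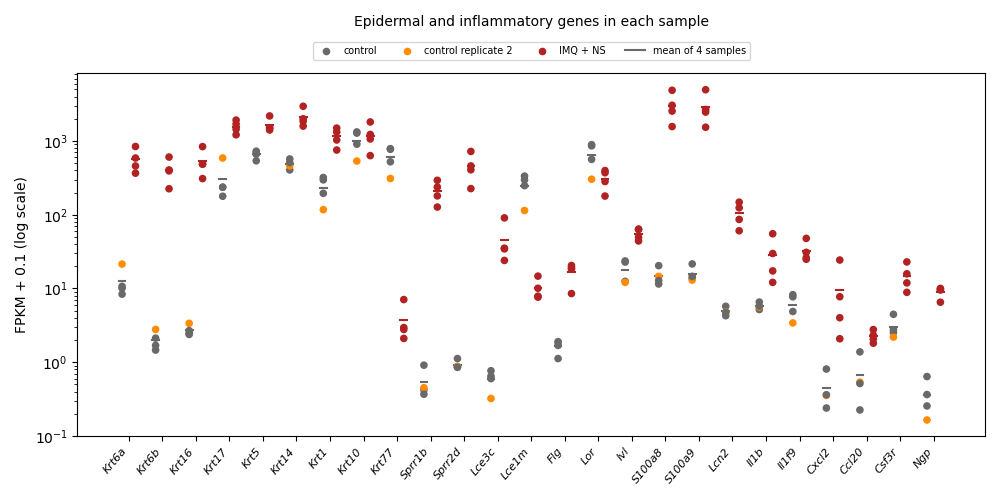
Points give FPKM + 0.1 (vertical axis, log scale) of epidermal and inflammatory genes in each of the 4 control (grey, replicate 2 in orange) and 4 IMQ + NS samples (red), with a line at each mean. The groups are apart for S100a8, Sprr2d and Krt16 and overlap for Krt10 and Lor, and Krt77 is lower in the lesions, at 2.0 to 6.97 FPKM.

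Antimicrobial proteins had the highest median of the inflammation lists. Of 17 genes, 14 were called higher, with a median of 4.36, and 15 of the 17 lay without overlap above the controls. S100a8, a subunit of calprotectin made by keratinocytes and neutrophils, was at 11.4, 14.5, 20.3 and 12.7 FPKM in the control samples and 1569, 3053, 4874 and 2544 FPKM in the IMQ + NS samples (log2 fold change 7.58 ± 0.32, adjusted p = 6.2e-07). S100a9, the other subunit, was at 13.6, 12.9, 21.4 and 14.5 FPKM against 1537, 2675, 4957 and 2468 FPKM (log2 fold change 7.44 ± 0.32, adjusted p = 7.2e-07). Lcn2, which encodes the iron-sequestering lipocalin 2, was at 5.63, 4.69, 4.17 and 4.65 FPKM against 60.5, 124, 148 and 86.2 FPKM (log2 fold change 4.35 ± 0.26, adjusted p = 4.5e-06). Defb4, a defensin gene, was listed at 0 in all 4 control samples and at 7.60, 4.22, 16.8 and 8.06 FPKM in the IMQ + NS samples (adjusted p = 3.2e-06). IMQ + NS replicate 3 had the highest value of all of these.

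Cytokines of the IL-17 axis were detected at low levels. Il17a was listed at 0 in every control sample and at 0.573, 0.402, 1.08 and 0.809 FPKM in the IMQ + NS samples (adjusted p = 5.1e-05). Il17f was at 0, 0, 0.0131 and 0.0265 FPKM in the control samples and 0.575, 0.416, 0.817 and 1.32 FPKM in the IMQ + NS samples (adjusted p = 1.1e-04). Il23a, a subunit of the cytokine IL-23, which sustains IL-17 producing cells, was at 0, 0, 0.113 and 0.246 FPKM against 0.110, 0.269, 0.494 and 0.183 FPKM and overlapped (adjusted p = 0.095), and it was called without control replicate 4. Of 14 genes of the axis tested, Il17a, Il17f and Il19 were called higher. With 1 in place of 0.1 added before the logarithm neither Il17a nor Il17f was called.

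The IL-1 and IL-36 family, cytokines with which keratinocytes and myeloid cells start inflammation, had 8 of 15 genes called higher and the decoy receptor Il1r2 called lower (-2.08), with a median of 1.64. Il1b was at 5.08, 5.51, 5.66 and 6.44 FPKM in the control samples and 12, 17.2, 55.1 and 29.7 FPKM in the IMQ + NS samples (log2 fold change 2.07 ± 0.41, adjusted p = 0.0027). Il1f9, which encodes IL-36 gamma, was at 4.77, 3.31, 8.13 and 7.60 FPKM against 24.8, 30.8, 47.7 and 26.0 FPKM (log2 fold change 2.46 ± 0.31, adjusted p = 2.7e-04). The gene of the receptor antagonist, Il1rn, rose as well, from 5.06, 6.45, 8.17 and 9.25 FPKM to 18.8, 19.9, 28.6 and 22.9 FPKM (log2 fold change 1.64 ± 0.20, adjusted p = 2.4e-04).

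Several chemokines that attract neutrophils rose and most CC chemokines fell. Of 7 genes for neutrophil chemokines and their receptors, the ligands Cxcl2, Cxcl3 and Cxcl5 and the receptors Cxcr1 and Cxcr2 were called higher, and Cxcl1 and Ppbp were not called. Cxcl2 was at 0.139, 0.254, 0.708 and 0.262 FPKM in the control samples and 1.98, 3.91, 24.2 and 7.62 FPKM in the IMQ + NS samples, a wide spread among lesions (log2 fold change 3.99 ± 0.71, adjusted p = 0.0016). Cxcl1 was at 0.839, 0.550, 1.23 and 1.43 FPKM against 1.67, 1.56, 1.87 and 2.48 FPKM, and its log2 fold change of 0.90 ± 0.28 did not reach the limit, although it did without control replicate 3 or 4. Of 17 CC chemokines, only Ccl20, Ccl3 and Ccl4 were called higher and 12 were called lower, with a median of -1.62. Ccl20, which attracts cells with the receptor CCR6, was at 0.125, 0.437, 0.414 and 1.28 FPKM against 2.67, 1.96, 2.23 and 1.71 FPKM (log2 fold change 2.03 ± 0.47, adjusted p = 0.0063). Ccl27a, the chemokine of resting keratinocytes, was at 17.9, 13.9, 17.9 and 19.8 FPKM against 7.43, 2.96, 2.74 and 2.81 FPKM (log2 fold change -2.22 ± 0.30, adjusted p = 4.1e-04). The monocyte attractants Ccl2 (-2.15), Ccl7 (-2.62), Ccl8 (-2.32) and Ccl12 (-2.65) and the lymphatic Ccl21a (-2.12) were among those called lower.

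No gene of the 14 on the list for tumour necrosis factor (TNF) and NF-kappa B was called by limma, in either direction, with a median of -0.05. The number at an unadjusted p below 0.05 was 5. Without the fold limit 4 were higher and 1 lower at an adjusted p below 0.05 (4427 and 4142 of all 15288 genes). Tnf was at 1.95, 1.48, 2.57 and 3.40 FPKM in the control samples and 1.49, 1.20, 2.26 and 1.70 FPKM in the IMQ + NS samples (log2 fold change -0.45 ± 0.27, adjusted p = 0.19). Tnfaip3, a feedback target of NF-kappa B, was at 3.67, 3.27, 5.83 and 6.14 FPKM against 3.65, 4.04, 5.23 and 4.21 FPKM (log2 fold change -0.10 ± 0.22, adjusted p = 0.72). For both genes the groups overlapped.

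Genes induced by interferon, a usual product of TLR7 signaling, were not higher in the lesions on day 10. Of 19 tested, none was called higher by limma and 9 were called lower (11 without control replicate 2), with a median of -1.07. Without the fold limit 0 of 19 were higher and 13 lower at an adjusted p below 0.05 (4427 and 4142 of all 15288 genes). An unadjusted p below 0.05 was found for 16 of the 19. Usp18 was at 14.1, 8.43, 15.2 and 12.3 FPKM in the control samples and 1.47, 0.945, 2.18 and 1.53 FPKM in the IMQ + NS samples (log2 fold change -2.97 ± 0.26, adjusted p = 4.1e-05), and Bst2 was at 60.4, 43.0, 72.5 and 51.0 FPKM against 18.1, 18.9, 21.3 and 21.6 FPKM (log2 fold change -1.48 ± 0.15, adjusted p = 9.9e-05). Isg15 was at 16.9, 14.6, 16.3 and 10.7 FPKM against 16.1, 16, 33.2 and 35.4 FPKM and did not pass (log2 fold change 0.70 ± 0.30, adjusted p = 0.072). Irf7 was called lower only without control replicate 2 (-1.02 against -0.83 with it). Tlr7, the receptor of imiquimod, was at 3.68, 2.67, 3.76 and 3.62 FPKM against 2.44, 3.58, 2.87 and 2.05 FPKM and was not called (log2 fold change -0.33 ± 0.19, adjusted p = 0.16). Of 11 Toll-like receptor and adaptor genes, Tlr1 and Tlr13 were called higher and Tlr5 lower.

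Of 10 matrix metalloproteinases (MMPs) and their inhibitors, Mmp13, Timp1 and Mmp8 were called higher and Mmp2, Mmp3, Mmp12 and Timp2 lower. Mmp9, the gelatinase of neutrophils and keratinocytes, was at 6.68, 3.52, 6.52 and 5.03 FPKM in the control samples and 3.87, 3.32, 11.1 and 6.82 FPKM in the IMQ + NS samples, with overlap (log2 fold change 0.08 ± 0.38, adjusted p = 0.86). Timp1 was at 11.4, 13.9, 8.97 and 5.61 FPKM against 18.4, 26.0, 24.3 and 20.7 FPKM (log2 fold change 1.22 ± 0.26, adjusted p = 0.0039), and lost its call without control replicate 4. Mmp13, a collagenase, was at 0.140, 0.252, 0.134 and 0.0963 FPKM against 0.697, 0.293, 2.24 and 1.75 FPKM (log2 fold change 2.11 ± 0.53, adjusted p = 0.0089), and was not called with 1 added before the logarithm.

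Transcripts of neutrophils rose while those of other leukocytes were mixed. Of 17 neutrophil markers tested, 15 were called higher, with a median of 2.86, and Mpo, which encodes the peroxidase of granules made in the marrow, was called lower (-2.66). The summed FPKM of the 18 markers in the file was 16.6 to 20.9 in control samples and 55.7 to 120 in IMQ + NS samples. Csf3r, the receptor of the growth factor of neutrophils, was at 2.43, 2.09, 4.36 and 2.66 FPKM in the control samples and 8.76, 11.8, 22.8 and 15.7 FPKM in the IMQ + NS samples (log2 fold change 2.28 ± 0.31, adjusted p = 4.2e-04). Ngp, which encodes a neutrophil granule protein, was at 0.539, 0.0646, 0.264 and 0.155 FPKM against 6.41, 9.68, 9.42 and 9.92 FPKM (log2 fold change 4.81 ± 0.38, adjusted p = 2.3e-05). Ly6g was at 0.0267, 0, 0.0273 and 0 FPKM against 1.12, 0.475, 1.41 and 0.426 FPKM (adjusted p = 2.3e-04). IMQ + NS replicate 3 had the highest mean of the list and the highest mean in 9 of 9 inflammation lists.

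Of 14 macrophage markers, Arg1 was called higher and Cd163 and Folr2 lower, with a median of -0.52. That share is near the background of 22.4% in either direction. Without the fold limit 2 were higher and 9 lower at an adjusted p below 0.05 (4427 and 4142 of all 15288 genes). Adgre1, which encodes F4/80, was at 33.3, 28.3, 30.0 and 22.6 FPKM in the control samples and 43.8, 43.7, 52.7 and 43.9 FPKM in the IMQ + NS samples, without overlap but under the fold limit (log2 fold change 0.70 ± 0.12, adjusted p = 0.0016). Csf1r, the receptor of the macrophage growth factor, was at 87.8, 60.4, 98.8 and 76.6 FPKM against 37.9, 47.9, 54.9 and 42.8 FPKM, also under the limit but in the other direction (log2 fold change -0.81 ± 0.17, adjusted p = 0.0035). Cd163, a scavenger receptor of resident macrophages, was at 35.9, 25.3, 47.6 and 34.4 FPKM against 11.3, 20.9, 14.8 and 8.61 FPKM (log2 fold change -1.40 ± 0.28, adjusted p = 0.0029). Retnla, a product of alternatively activated macrophages, was among the 10 largest falls, at 671, 313, 786 and 383 FPKM against 14.8, 10.4, 18.9 and 20.6 FPKM (log2 fold change -5.00 ± 0.32, adjusted p = 8.0e-06).

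Antigen presentation genes were lower in the lesions. Of 7 MHC class II genes, 6 were called lower, with a median of -1.86, and all 7 lay without overlap below the controls. Cd74, the invariant chain, was at 1193, 799, 1375 and 1217 FPKM in the control samples and 297, 326, 263 and 257 FPKM in the IMQ + NS samples (log2 fold change -1.98 ± 0.16, adjusted p = 3.0e-05). H2-Ab1, a class II beta chain, was at 346, 232, 391 and 351 FPKM against 104, 115, 98.3 and 92.1 FPKM (log2 fold change -1.66 ± 0.16, adjusted p = 5.9e-05). Of 12 Langerhans and dendritic cell markers, Xcr1, Clec9a, Cd209a, Cd83 and Siglech were called lower and none was called higher. Cd209a was at 37.4, 26.2, 51.4 and 45.8 FPKM against 3.39, 5.09, 3.87 and 2.18 FPKM (log2 fold change -3.45 ± 0.28, adjusted p = 2.6e-05). Cd207, which encodes langerin, the marker of Langerhans cells, was at 16.3, 10.6, 15.2 and 18.9 FPKM against 11.0, 9.34, 5.98 and 6.13 FPKM and was called lower only without control replicate 2 or IMQ + NS replicate 1 or 2 among the fits that left out 1 sample (log2 fold change -0.92 ± 0.24 with all).

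T cell and mast cell markers had no common direction, and B cell markers were mostly higher. Of 11 T cell markers tested, Icos and Cd5 were called higher, and Cd3g was at 10.3, 7.04, 12.3 and 10.5 FPKM in the control samples and 6.93, 7.72, 10.3 and 4.70 FPKM in the IMQ + NS samples (log2 fold change -0.46 ± 0.25, adjusted p = 0.14). Icos, a costimulatory receptor of activated T cells, was at 0.672, 0.421, 0.468 and 0.346 FPKM against 0.875, 1.11, 2.81 and 1.56 FPKM (log2 fold change 1.45 ± 0.34, adjusted p = 0.0063). Of 5 B cell markers, Cd79b, Cd22, Jchain and Blk were called higher, while Cd79a was at no more than 0.365 FPKM in any of the 8 samples. Jchain, which joins secreted antibodies, was at 0.488, 0.714, 0.487 and 0.429 FPKM against 4.97, 4.45, 2.20 and 2.60 FPKM (log2 fold change 2.48 ± 0.28, adjusted p = 1.5e-04). Of 8 mast cell markers, Fcer1a and Hdc were called higher and the protease genes Cpa3 and Cma1 lower. Cpa3 was at 57.7, 34.6, 48.5 and 45.5 FPKM against 18.7, 25.9, 21.5 and 22.0 FPKM (log2 fold change -1.06 ± 0.16, adjusted p = 6.6e-04), and its call was lost without control replicate 1 or IMQ + NS replicate 1.

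Skeletal muscle genes were lower in the lesions. All 21 skeletal muscle genes were called lower without overlap, with a median of -2.68 (-2.95 without control replicate 2). Acta1, the actin of skeletal muscle, was at 3421, 1420, 3303 and 3542 FPKM in the control samples and 296, 700, 226 and 355 FPKM in the IMQ + NS samples (log2 fold change -2.93 ± 0.39, adjusted p = 3.7e-04). Ckm, the creatine kinase of muscle, was at 1546, 633, 1506 and 1429 FPKM against 162, 291, 162 and 184 FPKM (log2 fold change -2.64 ± 0.31, adjusted p = 1.9e-04). Myh4, a fast myosin heavy chain, was at 271, 115, 309 and 267 FPKM against 32.8, 12.7, 37.2 and 42.0 FPKM (log2 fold change -2.98 ± 0.43, adjusted p = 5.1e-04). The share of muscle genes in the summed FPKM was 2.43 ± 0.792% in control and 0.296 ± 0.124% in IMQ + NS samples (SD, n = 4). Over the same samples the share of hair shaft genes went from 0.0469% to 10.4%, and its part in the lower FPKM of other genes was not tested beyond the scalings named above.

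Genes of energy metabolism were called in shares near the background of 22.4% or below it. Of 20 respiratory chain subunits, Cox8b and Cox7a1, the subunits of muscle, were called lower and the median was -0.12. Cox8b was at 298, 95.6, 269 and 253 FPKM in the control samples and 23.2, 45.9, 27.0 and 21.6 FPKM in the IMQ + NS samples (log2 fold change -2.90 ± 0.38, adjusted p = 3.3e-04). Of 20 glycolysis genes, Pfkm, Aldoa, Pgam2 and Eno3 were called lower and the glucose transporter gene Slc2a1 higher. Pgam2, the mutase of muscle, was at 324, 127, 285 and 292 FPKM against 19.0, 46.5, 15.2 and 25.5 FPKM (log2 fold change -3.32 ± 0.39, adjusted p = 1.9e-04), whereas Ldha was at 192, 134, 157 and 166 FPKM against 109, 134, 145 and 132 FPKM and did not pass (log2 fold change -0.31 ± 0.13, adjusted p = 0.061).

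Many fat genes and several sebaceous genes were lower as well. Of 15 adipocyte genes, 10 were called lower and none higher, with a median of -1.16, and 14 lay without overlap below the controls. Adipoq, which encodes the fat hormone adiponectin, was at 609, 244, 311 and 364 FPKM in the control samples and 84.8, 130, 96.5 and 109 FPKM in the IMQ + NS samples (log2 fold change -1.79 ± 0.26, adjusted p = 5.6e-04). Lep, which encodes leptin, was at 42.6, 23.5, 5.42 and 6.44 FPKM against 7.43, 11.8, 7.39 and 9.31 FPKM, spread widely among the controls, and did not pass (adjusted p = 0.4). Of 11 sebaceous gland genes, Scd3, Awat2, Awat1, Far2 and Mogat1 were called lower. Scd3, a desaturase of the gland, was at 131, 103, 151 and 157 FPKM against 24.4, 11.9, 6.55 and 9.45 FPKM (log2 fold change -3.52 ± 0.35, adjusted p = 8.1e-05), and Awat2, a wax synthase, was at 17.5, 14.7, 28.0 and 31.9 FPKM against 5.57, 2.60, 1.81 and 2.32 FPKM (log2 fold change -2.92 ± 0.36, adjusted p = 2.5e-04). Elovl3, which sebaceous glands and hair follicles use, was at 41.7, 48.1, 45.0 and 52.7 FPKM against 123, 91.4, 57.3 and 99.4 FPKM, under the fold limit (log2 fold change 0.93 ± 0.21) except without IMQ + NS replicate 3.

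In the dermis the main fibrillar collagens were lower. Of 17 collagens, Col1a1, Col1a2 and Col3a1 were called lower and Col12a1 and Col7a1 higher, with a median of -0.31 that became -0.03 without control replicate 2. Col1a1, a chain of type I collagen, was at 4046, 3546, 5226 and 5374 FPKM in the control samples and 1251, 1185, 829 and 958 FPKM in the IMQ + NS samples (log2 fold change -2.10 ± 0.18, adjusted p = 3.1e-05). Col3a1 was at 3704, 3218, 4187 and 4249 FPKM against 1432, 1516, 1179 and 1168 FPKM (log2 fold change -1.54 ± 0.12, adjusted p = 2.7e-05). Of 13 other matrix genes, Tnc and Thbs1 were called higher and Dcn, Fbln1, Lum and Sparc lower. Tnc, which encodes tenascin C, a matrix protein of wounds and of growing follicles, was at 0.913, 5.15, 0.754 and 0.558 FPKM against 22.8, 21.5, 31.6 and 35.4 FPKM (log2 fold change 4.38 ± 0.59, adjusted p = 3.6e-04), and control replicate 2 was above the other controls. Dcn, which encodes the proteoglycan decorin, was at 1698, 1294, 1990 and 1804 FPKM against 437, 572, 510 and 403 FPKM (log2 fold change -1.82 ± 0.15, adjusted p = 3.5e-05).

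Of 15 vessel markers, only the lymphatic genes Lyve1 and Prox1 were called lower, near the background of 11.0%, and none was called higher. Without the fold limit 9 of 15 vessel and 9 of 10 myelin genes were lower at an adjusted p below 0.05, against 4142 of all 15288 genes. Lyve1 was at 24.0, 15.6, 29.7 and 15.5 FPKM in the control samples and 4.03, 5.02, 4.23 and 4.03 FPKM in the IMQ + NS samples (log2 fold change -2.22 ± 0.21, adjusted p = 6.5e-05), whereas Pecam1, found in all endothelium, was at 39.7, 30.2, 37.7 and 37.0 FPKM against 26.8, 33.7, 33.1 and 29.3 FPKM and did not pass (log2 fold change -0.23 ± 0.11, adjusted p = 0.1). Of 10 myelin genes, 6 were called lower, with a median of -1.11.

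Immediate early genes, which respond within minutes to stimuli, were called lower in 7 of 14 cases, with a median of -1.04. Fos was at 97.7, 107, 293 and 313 FPKM in the control samples and 8.16, 14.6, 9.05 and 8.20 FPKM in the IMQ + NS samples (log2 fold change -4.17 ± 0.41, adjusted p = 7.8e-05). Fosb was at 5.63, 12.7, 34.1 and 37.9 FPKM against 0.237, 0.775, 0.112 and 0.271 FPKM (log2 fold change -5.49 ± 0.65, adjusted p = 1.9e-04), and Egr1 was at 77.7, 106, 191 and 222 FPKM against 41.2, 42.3, 40.8 and 41.0 FPKM (log2 fold change -1.72 ± 0.30, adjusted p = 0.0014). The controls split into replicates 1 and 2 with lower and replicates 3 and 4 with higher values of Fos and Fosb, while the lesions lay close together for Egr1. Of 15 circadian clock genes, only Npas2 was called lower (log2 fold change -1.88 ± 0.28, adjusted p = 6.9e-04) and none was called higher. That share is below the background of 11.0%, and Npas2 was not called with 1 added before the logarithm. Without the fold limit 0 clock genes were higher and 8 lower at an adjusted p below 0.05 (4427 and 4142 of all 15288 genes).

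**Figure D5:**
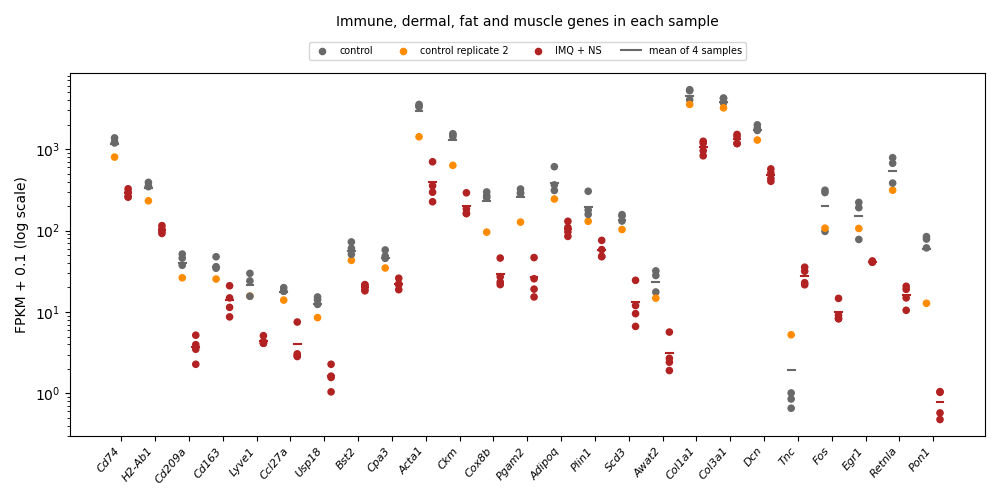
Points give FPKM + 0.1 (vertical axis, log scale) of immune, muscle, fat, gland, dermal and immediate early genes in each control (grey, replicate 2 in orange) and IMQ + NS sample (red), with a line at each mean. All genes shown except Tnc are lower in the lesions, and Acta1 in control replicate 2 (1420 FPKM) lies between the other controls and the lesions.

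Among the largest falls outside the lists, Pon1, which encodes an esterase carried by high density lipoprotein, was at 61.2, 12.7, 78.6 and 84.2 FPKM in the control samples and 0.476, 0.378, 0.952 and 0.931 FPKM in the IMQ + NS samples (log2 fold change -6.02 ± 0.59, adjusted p = 7.2e-05). Control replicate 2 was again nearest to the lesions. S100a7l2, in the epidermal differentiation complex, was at 7.21, 9.03, 8.04 and 11.1 FPKM against 0 in 3 lesions and 0.114 FPKM in the fourth (adjusted p = 8.6e-07). Mrgprb3, a receptor gene of the Mas-related family, was at 5.04, 2.56, 8.06 and 8.09 FPKM in the control samples and was listed at 0 in 3 lesions and at 0.0278 FPKM in replicate 2 (adjusted p = 5.9e-06). Gal, which encodes the neuropeptide galanin, was at 8.19, 9.65, 20.6 and 22.1 FPKM against 0.410, 0.398, 0.252 and 0.348 FPKM (log2 fold change -4.95 ± 0.33, adjusted p = 9.7e-06). Serpinb6e (log2 fold change -4.92 ± 0.63) and F830045P16Rik (log2 fold change -4.99 ± 0.23) completed the group, with Hamp2, a gene related to hepcidin, which was listed at 0 in every lesion and at 1.37, 1.14, 5.44 and 4.42 FPKM in the control samples (adjusted p = 8.5e-05).

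The rest of the 10 largest rises, ranked with at most 3 genes from 1 list, were Gm10100, Gm11555, Gm11565, Gm10228 and the stefin Csta3. The Gm genes have names from the annotation only. Gm11555 (chr11:99649654-99650181) and Gm11565 (chr11:99914751-99915671) lie inside the type I keratin and KRTAP cluster. Gm10228 (chr16:89040923-89041472) lies between Krtap19-5 and Krtap6-3. Csta3 was at 0, 0.255, 0.0870 and 0.350 FPKM in the control samples and 80.1, 187, 281 and 168 FPKM in the IMQ + NS samples (log2 fold change 9.45 ± 0.52, adjusted p = 3.0e-06). Gm11555 was at 0.620, 2.52, 1.09 and 0.228 FPKM against 560, 420, 498 and 588 FPKM (log2 fold change 9.11 ± 0.53, adjusted p = 4.5e-06), and Gm10228 was at 0.774, 1.23, 1.72 and 0.609 FPKM against 685, 514, 550 and 586 FPKM (log2 fold change 9.04 ± 0.27). Gm11565 was at 0.788, 0.244, 0.167 and 0.280 FPKM against 275, 243, 149 and 258 FPKM (log2 fold change 9.07 ± 0.36). Gm10100 was at 0, 0.0630, 0 and 0.260 FPKM against 145, 104, 82.6 and 122 FPKM (log2 fold change 9.48 ± 0.40). The mean of IMQ + NS replicate 3 was the lowest of the lesions in 5 of the 7 hair follicle lists and the highest in 10 of 11 epidermal lists.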

How the data were processed

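Total RNA of back skin on day 10 was sequenced in 4 control, 4 IMQ + NS and 4 IMQ + BZLF samples, grouped by the labels. The authors deposited 1 table of FPKM values for all samples, which they computed per gene from aligned reads. The study's methods name Bowtie2, eXpress and a ribosomal depletion kit, whereas the submitters' processing notes list fastp, HISAT2, HTSeq and R 3.2.0 and the build mm10, so the counting and its use of strand are not settled. Low values were divided by the lowest value of the same gene, and only 36.5% of 7549 such ratios came within 0.05 of a whole number, so read counts were not recovered, the depth is unknown and no counting intervals are given. Every column belonged to a sample (0 did not).

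Genes with a mean of at least 0.1 FPKM over the 12 samples were compared on log2(FPKM + 0.1) with limma 3.58.1 in R 4.3.3 (trend moderation, 4 control and 4 IMQ + NS samples, no covariate). Genes were called at a Benjamini-Hochberg adjusted p below 0.05 over 15288 genes with a log2 fold change over 1 in size, and the fit was repeated without control replicate 2. Data were simulated for this comparison over 15288 genes. Of 200 genes changed by 2 (log2), 91.5% were called beside 2 unchanged genes. Of 200 genes changed by 3, 97.5% were called beside 4 unchanged genes. None was called when no gene was changed. The rate of false calls under deviations that many genes of a sample share, as in control replicate 2, was not tested. Fold changes on this scale understate those of low genes. Lists are described by counts and medians. Named genes were fixed anchors of each list, the 2 highest called members of a list without a called anchor, the 10 largest rises and falls without overlap (mean of at least 1 FPKM, at most 3 from 1 list) and the 5 called genes that moved most without control replicate 2. The comparison and the lists were chosen with earlier results of these data known. Promoters and gene positions came from RefSeq (GRCm38.p6), which held 18369 of 18505 symbols. Python 3.11.15, pandas 2.3.3, numpy 2.4.6 and matplotlib 3.10.9 were used. The alternatives tried were added constants of 0.01 and 1, other filters and scalings, all 12 samples in 1 fit, other moderation, the replicate number as a block and leaving out each sample. Some genes of the lists are not reported here.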

Additional observations from a re-analysis of the deposited data

Results flagged for a closer look

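Within each group of 4 samples, 355 sets of values were searched for a sample whose gap to its nearest neighbour exceeded Dixon's 95% critical share of the group's range. Chance alone gives such a gap in about 1 in 20 sets, and 31 were found.

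Control replicate 2 accounted for 17 of them. Its mean log2(FPKM + 0.1) stood above the other controls for hair matrix transcription factors (3.46), hair follicle stem cell and resting genes (3.97) and seminal vesicle genes (2.0), and below them for skeletal muscle (6.56). Among single genes it was high for Tchh (203 FPKM) and Svs4, a seminal vesicle secretion gene (12.3 FPKM). It was low for the muscle genes Acta1 (1420 FPKM), Ckm (633 FPKM), Myh4 (115 FPKM), Cox8b (95.6 FPKM), Cox7a1 (35.5 FPKM), Aldoa (647 FPKM) and Pgam2 (127 FPKM), and for Lce1f (14.8 FPKM), Tlr7 (2.67 FPKM), Pon1 (12.7 FPKM) and F830045P16Rik (2.36 FPKM). Control replicate 4 was high for Sprr2d (1.02 FPKM) and low for the pancreas list (0.80 in mean log2) and the elastase gene Cela1 (2.45 FPKM).

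IMQ + NS replicate 3 accounted for 7. It was high for Krt5 (2186 FPKM), Cers3 (22.7 FPKM), Hbegf (7.68 FPKM), Mki67 (24.7 FPKM), Adgre1 (52.7 FPKM) and the kallikrein list (5.67 in mean log2), and low for hair growth signals (2.05 in mean log2). IMQ + NS replicate 4 was low for the list of filaggrin-type proteins, loricrin and involucrin (4.91 in mean log2) and for Flg (8.43 FPKM). IMQ + NS replicate 1 was high for Ccl27a (7.43 FPKM) and low for Ngp (6.41 FPKM).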

How the results depend on the processing

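The count of genes called lower fell from 1678 to 1023 with a constant of 1 added before the logarithm and from 1871 to 1155 without control replicate 2, since a larger constant shrinks fold changes of low genes. Without a limit on the fold change 4427 genes were higher and 4142 lower, and 6036 and 4425 without control replicate 2. Leaving out 1 sample gave 1507 to 2196 higher and 1583 to 1871 lower genes, and 2165 to 2227 and 1805 to 1924 when control replicate 2 was also left out. The other settings kept these counts within 1.5 times. Of the called genes 50.9% were higher, against 42.0% with equal sums and 43.5% with quantile normalization. Il17a, Il17f, Icos, Cd5, Ly6g, Mmp13, Npas2, Prox1, Tlr1 and Hbegf lost their calls with a constant of 1. The median of the T cell markers turned from 0.23 to -0.34 among genes with a mean of at least 1 FPKM, where fewer members were left. Counting each list once under each setting, 841 medians moved by less than the spread between samples and 51 by more. With the number as a replicate block, 1730 genes were higher and 1684 lower (2224 and 1932 without control replicate 2), and among named genes only Lor lost its call. Deviations of control and IMQ + NS samples with the same number correlated at -0.085, -0.152, 0.184 and 0.111 over all genes tested. On that ground the main fit did not pair samples by number. Replicates 3 and 4 correlated best with their own number and replicates 1 and 2 did not. The foreign transcripts described above did go with the number, and whether samples of the same number shared any handling was not tested. Depth is unknown, so values near 0 carry an error that could not be given.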
